A study of Homo sapiens with 4 samples.

Results

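Small nucleolar RNA host genes (SNHG genes) are transcribed as long RNAs whose introns hold small nucleolar RNAs (snoRNAs). The gene set described here was every symbol made of SNHG and a number, 28 genes, with GAS5, MALAT1, NEAT1 and MIAT, which makes 32 genes of the 28307 symbols in the deposited tables. The choice used names only and no measured value, although earlier results of these data were known when it was made. Counts fell on 28 of the 32, and SNHG22, SNHG26, SNHG27 and SNHG28 had 0 counts in every library.

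The 4 libraries are polyA RNA sequencing (paired-end, 75 bp) of i3N-WTC11 neurons, excitatory neurons differentiated from the human induced pluripotent stem cell line WTC11. All 4 came from cells with dCas9-KRAB, a catalytically dead Cas9 fused to a repressor domain, driven by a CAG promoter from a knock-in at the CLYBL safe harbour. After 2 weeks of differentiation the neurons received lentivirus at a multiplicity of infection near 3, then puromycin (0.5 μg/mL) for 4 days, and were collected 7 days after the virus. The 2 CRISPRi libraries carried guide RNAs against a transposable element of the MIR family on chromosome 11, and the 2 control libraries carried the empty vector. The sources used here do not give which guide each CRISPRi library received, and all cells derive from 1 line.

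After splicing, the introns of a host gene release snoRNAs, which join proteins such as fibrillarin and dyskerin and guide the methylation or pseudouridylation of ribosomal RNA. The spliced host RNAs often begin with a C followed by pyrimidines, the terminal oligopyrimidine (TOP) start of ribosomal protein messages, and several are known targets of nonsense-mediated decay. NEAT1 is the scaffold of paraspeckles, MALAT1 lies in nuclear speckles, and MIAT is a nuclear lncRNA abundant in neural tissue. The mature MALAT1 and the long NEAT1 isoform end in a triple helix and not in an added poly(A) tail, and processed snoRNAs also have no tail.

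Of the 32 genes, 27 had an entry in the RefSeq promoter table (GRCh38.p14). For 21 of these the deposited gene start was the RefSeq start. Each line below gives 10 bases before the start and 20 bases from it, 5′ to 3′ on the gene's strand, with the unbroken run of C and T that begins with a C at the first transcribed base in capitals. The lines are shown for the TOP-patterned genes that were tested, except SNHG4, and for the genes the results turn on.
SNHG5, chr6:85678714-85678743, minus strand: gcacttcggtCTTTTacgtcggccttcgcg
SNHG19, chr16:2155339-2155368, minus strand: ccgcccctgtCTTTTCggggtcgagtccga
SNHG32, chr6:31834906-31834935, plus strand: cattttagttCTTTTTgcgaagtgggctcg
SNHG12, chr1:28581854-28581883, minus strand: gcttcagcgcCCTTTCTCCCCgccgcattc
SNHG1, chr11:62855866-62855895, minus strand: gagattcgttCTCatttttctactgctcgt
SNHG7, chr9:136728165-136728194, minus strand: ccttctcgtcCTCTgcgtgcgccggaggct
SNHG29, chr17:16438977-16439006, plus strand: ccttttgtgaggattgggatattccgactc
SNHG16, chr17:76557754-76557783, plus strand: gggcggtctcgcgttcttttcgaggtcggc
SNHG20, chr17:77088633-77088662, plus strand: ttccggccggaagttgctgacggagctact
SNHG3, chr1:28505933-28505962, plus strand: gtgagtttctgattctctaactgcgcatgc
MALAT1, chr11:65497728-65497757, plus strand: ctctcccctcCgcagcctgcagcccgagac

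A C at the first transcribed base followed by at least 4 C or T bases was found in 6 of the 27 genes (22.2%), namely SNHG4, SNHG5, SNHG12, SNHG18, SNHG19 and SNHG32. The pattern was read on the transcribed strand at that single position. It was present at 4.07% of all 35116 promoter entries and at 46 of 79 ribosomal protein entries (58.2%). Both of these shares are per entry and not per gene, and a gene such as MALAT1 can have several entries. SNHG1 and SNHG7 begin with C but have shorter runs of 3 and 4, and SNHG29, SNHG16 and SNHG3 begin with G. The GAS5 entry starts with A, 163 bases from the deposited start. Among the genes with the pattern, the SNHG12 and SNHG4 entries lie 1110 and 349 bases from the deposited start. The SNHG32 entry is on chromosome 6 itself, while the counted row of SNHG32 lies on an alternate contig. Other start sites of the same gene lie outside these windows, so the letters describe the annotated start only. NEAT1, SNHG6, SNHG9, SNHG15 and SNHG25 had no entry.

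Total counts were 44839748 and 41560282 in CRISPRi replicates 1 and 2, 944993 in control replicate 1 and 39325038 in control replicate 2. One count was therefore worth 1.06 CPM (a count scaled by its library's total) in control replicate 1 and 0.0223 to 0.0254 CPM in the 3 deep libraries. The neuronal identity given in the labels matched a summed level of 13 pan-neuronal markers between 19342 and 22776 CPM, lowest in control replicate 1, where 9 of the 13 lay below all 3 other libraries beyond counting error and 0 above. Control replicate 1 also differed in composition. The summed level of 20 proliferating cell markers was 812 CPM there and 156, 166 and 167 CPM in the others, MKI67 was at 76.2 CPM against 11.1 to 14.2, and TOP2A at 80.4 against 12.1 to 13.1. The 5 astrocyte markers summed to 6.35 CPM in it against 0.636 to 0.914, from 2 counts of SLC1A3 and 4 of GJA1 alone, with GFAP, AQP4 and ALDH1L1 at 0 there. The microglial markers AIF1 and P2RY12 and the oligodendrocyte markers MAG and SOX10 were at 0 in all 4 libraries. C1QTNF4 and MTCH2, the genes beside the element, had log2 fold changes of 0.06 and 0.08. In bulk RNA, fewer cells of a type and less RNA per cell cannot be told apart.

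Together the 32 genes took 0.105% and 0.106% of all counts with CRISPRi and 0.114% and 0.11% in the controls, or 1051, 1062, 1144 and 1096 CPM. SNHG29, a host gene on chromosome 17 (chr17:16438987-16470648), alone made up 30.7%, 31.4%, 27.6% and 29.9% of these. Its level was 323 and 333 CPM with CRISPRi and 315 and 328 CPM in the controls, so the 4 libraries differed little and the groups overlapped. MIAT (chr22:26657482-26676477) followed with 182 and 142 CPM against 190 and 202 CPM. SNHG14, the long host transcript of the imprinted Prader-Willi region that also runs antisense to UBE3A, had 117 and 108 CPM against 105 and 112 CPM.

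SNHG32 was at 73.3 and 74.7 CPM with CRISPRi and 69.8 and 74.4 CPM in the controls. Its only row lay on an alternate contig of chromosome 6, and the deposited FPKM (a level scaled by transcript length and library size) was 0 in every library despite 66 to 3285 counts. GAS5, the host of 11 snoRNA rows and a TOP transcript long known from growth-arrested cells, had 69.6 and 78.1 CPM against 82.5 and 74.4 CPM. Its lowest and highest libraries belonged to different groups, and the others lay between. SNHG6 had 39.9 and 40.6 CPM against 41.3 and 44.3 CPM. SNHG16 and SNHG7 were near 34.5 and 32.0 CPM in CRISPRi replicate 1.

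**Figure D1:**
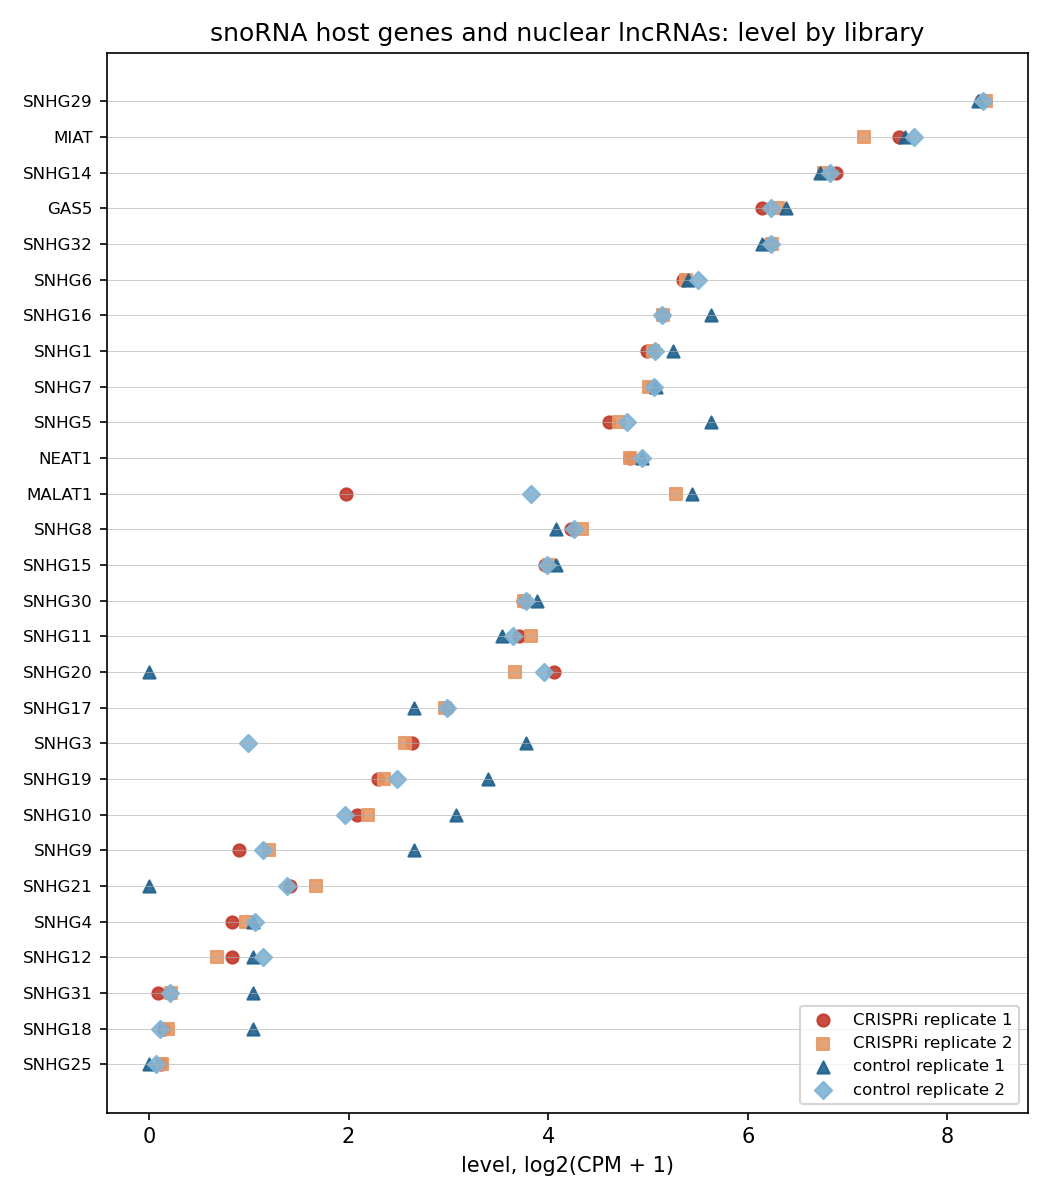
Level of the 28 genes with a count in each of the 4 libraries, on the scale log2(CPM + 1), ordered by mean CPM. SNHG29 lies at the top in every library, most genes have their 4 points close together, and MALAT1, SNHG20 and SNHG3 are spread widely.

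Levels between genes were compared per kilobase of the union of GENCODE release 29 exons, which all 32 genes had. SNHG29 remained first with a mean level of 86.4 CPM per kilobase, between 83.9 and 88.6 in single libraries. SNHG32 was second at 40.6, between 38.8 and 41.5, and SNHG6 at rank 3 with 33.3, between 32.0 and 35.5. None of these 3 ranges overlapped. GAS5 at 21.0 and SNHG8 at 19.2 were next, and their ranges of 19.2 to 22.7 and 17.2 to 20.8 overlapped, although GAS5 was the higher of the pair in each library, by little in CRISPRi replicate 1 (19.2 against 19.1). SNHG19 had 16.2, MIAT 15.2 and SNHG5 came at rank 8. SNHG19 and SNHG5 were each highest in control replicate 1, at 27.8 and 17.3, against at most 13.5 and 9.52 in the others.

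The long RNAs fell back on the per-kilobase scale. SNHG14, at rank 3 by CPM, was at rank 17 with 2.55 CPM per kilobase, MALAT1 at rank 16 with 2.73, and NEAT1 at rank 23 with 1.25. By the mean deposited FPKM, SNHG29 was again first, followed by GAS5, SNHG5, SNHG6 and SNHG8. SNHG5 stood before SNHG6 only through control replicate 1 (93.8 against 57.6). In the deep libraries SNHG6 was the higher, at 55.4 to 61.6 against 45 to 51.4. SNHG32, listed at 0 in that unit, ranked 29th. Both orders rest on 1 length per gene or per library and do not know which isoforms were present.

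At the low end, SNHG4, SNHG9, SNHG12 and SNHG21 had between 0.602 and 2.19 CPM in the deep libraries. SNHG18, SNHG25 and SNHG31 had at most 0.168 CPM there, too few counts for the test. In control replicate 1, SNHG20, SNHG21 and SNHG25 had 0 counts, and a count of 0 there allowed up to 3.17 CPM (3 counts, a one-sided limit for counting error only, where the two-sided 95% interval used further on reaches 3.9 CPM). Of these 3 genes, SNHG20 alone was above both limits in the deep libraries.

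The first comparison asked which of these genes changed when the element was targeted. No host gene and no nuclear lncRNA of the set passed the test. With edgeR's quasi-likelihood test and Benjamini-Hochberg adjustment over all 15708 genes tested, 0 of the 25 tested genes were higher and 0 lower in CRISPRi, beside 0% and 0.0255% of all genes. At an unadjusted p under 0.05 the count was 0 of 25, beside 0.961% of all genes, and DESeq2 and limma-voom each called 0. The log2 fold change, CRISPRi over control, was positive for 10 and negative for 15, with a median of -0.03 beside 0.01 for all tested genes. Every adjusted p in the set was 1. The smallest two-sided p that an exact permutation test can reach with 2 libraries a group is 0.333, and no such test was run.

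How tightly a change was bounded differed between genes. For 16 of the 25 (64%) the 95% interval of the log2 fold change lay within -1 and 1, beside 68.7% of all tested genes. SNHG29 had a log2 fold change of 0.04 (95% interval -0.15 to 0.24), GAS5 -0.04 (-0.28 to 0.20), SNHG14 0.05 (-0.15 to 0.25) and SNHG32 0.03 (-0.17 to 0.22). NEAT1 had -0.11 (-0.38 to 0.16), SNHG6 -0.10 (-0.34 to 0.13), SNHG7 -0.02 (-0.28 to 0.23) and SNHG1 -0.08 (-0.36 to 0.19). A doubling or a halving lay outside each of these 8 intervals. The intervals of SNHG3, SNHG4, SNHG9, SNHG10, SNHG12, SNHG19, SNHG20, SNHG21 and MALAT1 did not exclude one.

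MIAT had the smallest unadjusted p of the set, 0.0872 by edgeR. Its mean was 162 ± 27.8 CPM (SD, n = 2) with CRISPRi and 196 ± 8.46 CPM (SD, n = 2) in the controls. The log2 fold change was -0.27 (SE 0.13, 95% interval -0.60 to 0.06, adjusted p = 1). Both CRISPRi libraries were below both controls, but CRISPRi replicate 1, at 182 CPM, lay close to control replicate 1, at 190. Without CRISPRi replicate 2 the log2 fold change was -0.10, and without CRISPRi replicate 1 it was -0.45. TUG1, a lncRNA outside the set, was also lowest in CRISPRi replicate 2, at 257 CPM against 354, 285 and 335.

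SNHG5, SNHG12, SNHG19 and SNHG6 came next by p. SNHG5, a TOP-patterned host gene, had 23.4 and 25.2 CPM against 48.7 and 26.7 CPM, a log2 fold change of -0.38 (-0.99 to 0.23). The CRISPRi libraries were both lower, yet control replicate 2 lay close to them, and control replicate 1 stood apart. SNHG19 had the same arrangement, with 3.90 and 4.11 CPM against 9.52 and 4.60 CPM, and a log2 fold change of -0.48 (-1.45 to 0.50). SNHG12 had only 35, 25, 1 and 47 counts in the order CRISPRi 1, CRISPRi 2, control 1, control 2.

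Without regard to size, both CRISPRi libraries lay below both controls for 10 of the 25 genes and above for 2, SNHG11 and SNHG21. Over all tested genes the shares were 16.5% below and 17.8% above. For SNHG21, control replicate 1 had 0 counts and control replicate 2 had 1.60 CPM against 1.67 and 2.19 CPM. SNHG11 had 12.1 and 13.2 CPM against 10.6 and 11.5 CPM, with a log2 fold change of 0.17 (-0.25 to 0.58).

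**Figure D2:**
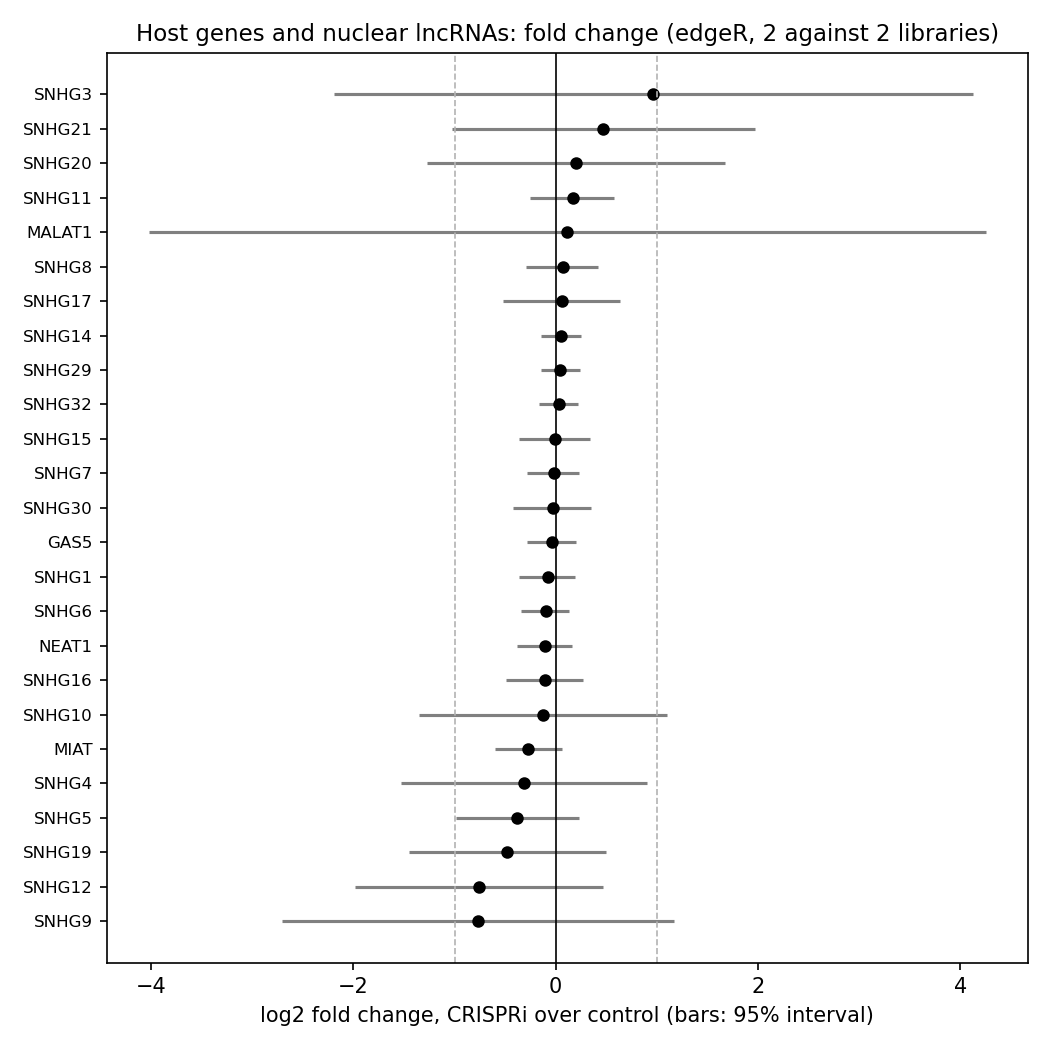
Log2 fold change of the 25 tested genes, CRISPRi over control, by edgeR on 2 against 2 libraries, with 95% intervals as bars and dashed lines at a halving and a doubling. Every interval includes 0, and those of MALAT1 and SNHG3 are the widest.

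MALAT1 (chr11:65497738-65506512) varied more within each group than between them. CRISPRi replicates 1 and 2 held 131 and 1572 of its counts and the controls 40 and 519, or 2.92, 37.8, 42.3 and 13.2 CPM. Each group held 1 high and 1 low library, and the groups overlapped. The log2 fold change was 0.11 with a standard error of 1.49 (95% interval -4.02 to 4.25). Among the 3 deep libraries the highest level was 12.9 times the lowest. For 14 of the 17 genes of the set with a mean of at least 10 CPM this ratio was at most 1.3, which held for 96.4% of all genes at that level. Only 6 of 9926 genes (0.0604%) had a ratio as wide as MALAT1, and the others were KIAA0408, LOC107984974, NOMO3 and the ribosomal RNA copies RNA18SN4 and RNA18SN5. After MALAT1, the widest of the set were MIAT at 1.42 and SNHG20 at 1.35.

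A call on MALAT1 depended on which libraries entered. Without CRISPRi replicate 2 it was called lower by edgeR, with a log2 fold change of -3.10 and an adjusted p of 8.01e-05, when 0.181% of all genes were called lower. That comparison set 1 CRISPRi library against both controls, so its spread came from the controls, moderated over all genes, and it left out the difference between the CRISPRi libraries themselves. Without CRISPRi replicate 1 the log2 fold change was 0.69, without control replicate 1 it was 0.63 and without control replicate 2 it was -1.03, and none of these passed the test. NEAT1, the neighbouring lncRNA on chromosome 11 (chr11:65422798-65445538), did not share this spread, with 27.2 and 27.3 CPM against 29.6 and 29.6 CPM. Its rank among all genes by CPM stayed between 6547 and 6852, while that of MALAT1 moved between 5417 and 12186.

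NEAT1 differed between libraries in another unit. Its deposited FPKM was 6.86 in CRISPRi replicate 1 and 1.37, 1.27 and 1.52 in CRISPRi replicate 2 and the controls, although the CPM values were nearly equal. The transcript length implied by count, FPKM and total count was 3967 bases in CRISPRi replicate 1 and 19897, 23408 and 19501 bases in the others. NEAT1 has a short and a long isoform that share their start. The implied length was thus short in 1 library and long in the other 3, while the count did not depend on a length. No count per isoform was used here, so a shift between isoforms was not tested.

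SNHG3 was named after its values were seen. It had 5.20 and 4.91 CPM with CRISPRi and 12.7 and 0.992 CPM in the controls, from 233, 204, 12 and 39 counts. The controls lay on either side of the CRISPRi libraries, and the log2 fold change was 0.96 (-2.19 to 4.12). Without control replicate 1 SNHG3 was called higher in CRISPRi by edgeR (log2 fold change 2.35, adjusted p = 0.00526), when 0.437% of all genes were called higher. That comparison set both CRISPRi libraries against 1 control, whose spread was assumed to equal that of the CRISPRi group. Without control replicate 2 the log2 fold change was -1.30, the opposite sign. SNHG5 was called lower without control replicate 2 (-0.97, adjusted p = 0.0102), when control replicate 1 was the only control, the spread came from the CRISPRi libraries and 4.97% of all genes were called lower.

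Rows of other genes overlapped several of these loci, and the sources used here do not give whether the counting used strand. Rows other than snoRNAs overlapped 16 of the 32 genes. RCC1, whose protein is the nucleotide exchange factor of the GTPase Ran, shares the strand and locus of SNHG3 and had 72.0 CPM in control replicate 1 and 11.9 to 12.3 CPM in the others. The sum of SNHG3 and RCC1 was 17.5, 16.8, 84.7 and 13.0 CPM, and SNHG3 held 29.7%, 29.2%, 15.0% and 7.65% of it. RCC1 was thus high in control replicate 1, together with the proliferating cell markers, whose part in it was not tested, and level in the other libraries, where SNHG3 was low only in control replicate 2.

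TALAM1, an antisense transcript of the MALAT1 locus, had 34 counts in control replicate 1, 2 in CRISPRi replicate 2 and 0 elsewhere. The smallest library thus held nearly all of its reads. The sum of MALAT1 and TALAM1 was 2.92, 37.9, 78.3 and 13.2 CPM, and the spread among the deep libraries was as wide as for MALAT1 alone. Without a stated strand setting, reads of the pair cannot be told apart.

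SNHG20 is next to SEC14L1, a same-strand neighbour that overlaps it and codes for a lipid-binding domain protein. Counts of SNHG20 were 706 and 486 with CRISPRi and 0 and 571 in the controls, or 15.7, 11.7, 0 and 14.5 CPM. SEC14L1 had 155, 147, 111 and 142 CPM. At the mean CPM of the deep libraries, about 13.2 counts of SNHG20 would fall in control replicate 1. SEC14L1 was also lower there, with 105 counts against about 140 at its own mean CPM in the deep libraries. Against the floor of 3 counts in that library, SNHG20 was at least 3.68-fold lower there than in the lowest deep library. The two-sided limit of 3.9 CPM is higher than that floor and gives a smaller bound, with the lowest deep library at 11.7 CPM.

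The share of the summed level that other genes held beside an overlapping row differed widely. LRRC75A, opposite SNHG29, had 2.43 to 5.29 CPM, and SNHG29 held 98.3% to 99.3% of the sum. ZBTB37, opposite GAS5, had 25.3 to 30.8 CPM, and GAS5 held 69.3% to 75.6% of the sum. DIPK1B, opposite SNHG7, had 65.4 to 70.9 CPM, and SNHG7 held 31.6% to 32.5% of the sum. TRNAU1AP, opposite SNHG12, left it 3.63% to 7.41%. SNHG4 had 1.09 CPM or less beside MATR3, a nuclear matrix protein gene on the same strand with 725 to 773 CPM. The SNHG14 span of chromosome 15 also held SNRPN (416 to 479 CPM, which left SNHG14 18.9% to 20.2% of the sum of that pair), IPW (24.4 to 31.7 CPM) and, on the other strand, UBE3A (153 to 160 CPM).

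**Figure D3:**
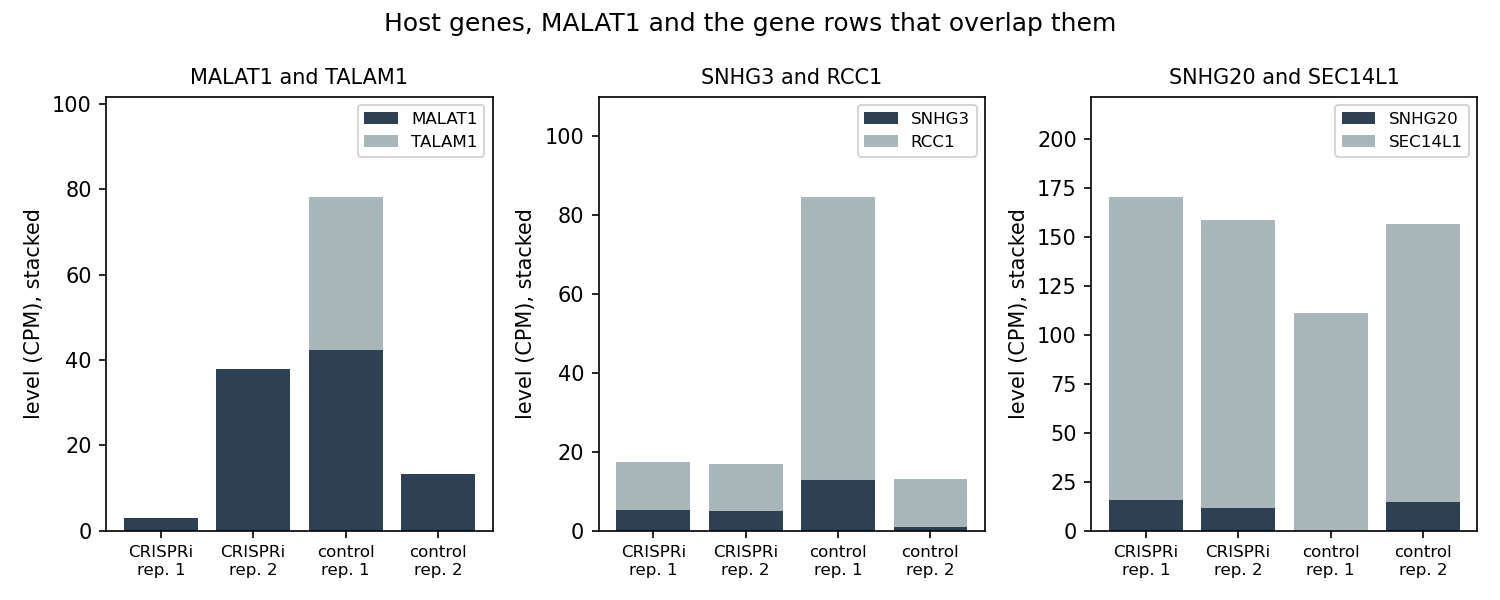
Level (CPM, stacked bars) of MALAT1, SNHG3 and SNHG20 with the row that overlaps each, TALAM1, RCC1 and SEC14L1, in the 4 libraries. TALAM1 and RCC1 add most of their height in control replicate 1, while the SNHG20 part is missing in that library only.

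The second comparison set control replicate 1 against the 3 deep libraries. It used the 17 genes with a mean of at least 10 CPM in those and an exact 95% Poisson interval on the count in control replicate 1, which covers counting error only. SNHG5 and SNHG16 lay above all 3 deep libraries, SNHG20 lay below, and 14 were within. Of all 9926 genes at that level, 10% lay above and 7.61% below, so 2 and 1 of 17 were near the shares of all genes. The median log2 ratio on the scale log2(CPM + 1) was 0.08 for the 17 and -0.01 for all genes, with 10 positive and 7 negative.

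SNHG5 had 46 counts in control replicate 1, or 48.7 CPM with an interval of 35.6 to 64.9 CPM, against 23.4, 25.2 and 26.7 CPM. Its log2 ratio was 0.93, and about 23.7 counts were expected at the deep level. SNHG16 also had 46 counts there, with the deep libraries at 34.5, 34.6 and 34.3 CPM and a log2 ratio of 0.49. Its interval, the same 35.6 to 64.9 CPM, cleared the highest deep value by a narrow margin.

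MALAT1 had the largest ratio, 1.19, but its interval of 30.2 to 57.6 CPM held the level of CRISPRi replicate 2. SNHG1, host of 8 snoRNA rows, had 37.0 CPM against 30.7 to 32.5 CPM and a ratio of 0.21, and GAS5 a ratio of 0.16. Both intervals, 25.8 to 51.5 and 65.2 to 103 CPM, held all 3 deep values. On the low side after SNHG20, SNHG8 had a ratio of -0.20, SNHG11 -0.19, SNHG14 -0.10 and SNHG32 -0.08, all within their intervals. At 66 to 298 counts in control replicate 1 for the 5 most abundant genes, intervals were narrow enough to exclude a doubling, whereas SNHG11 rested on 10 counts.

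**Figure D4:**
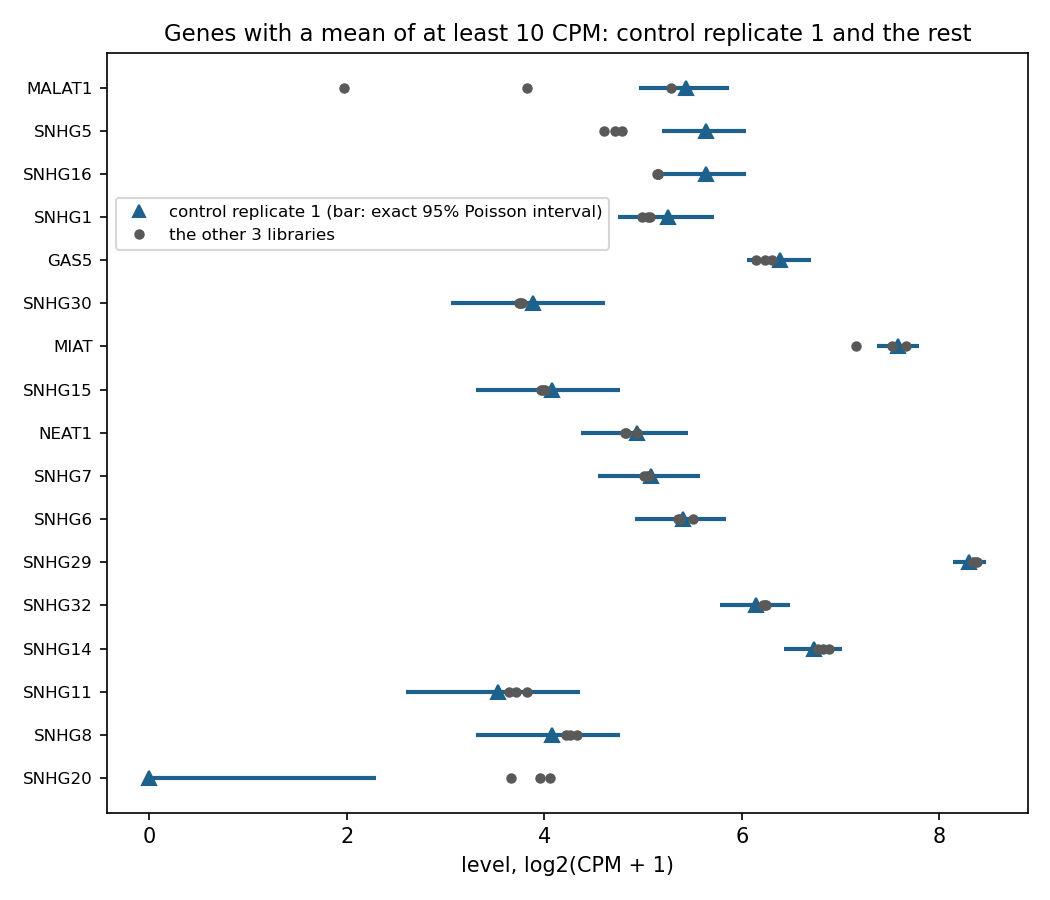
Level on the scale log2(CPM + 1) of the 17 genes with a mean of at least 10 CPM, with control replicate 1 as triangles and its exact 95% Poisson interval as bars, and the 3 deep libraries as points. The intervals of SNHG5 and SNHG16 lie above the deep points, that of SNHG20 lies below, and the other 14 meet at least 1 deep point or lie between them.

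Lists of related genes were described by counts and medians beside those of all genes, whose median log2 fold change was 0.01. No gene of any list passed the edgeR test in either direction, beside 0% higher and 0.0255% lower over all genes. Among the 17 proteins of snoRNA particles and their assembly, 4 had a positive and 13 a negative log2 fold change, with a median of -0.12. Their summed level was 800 and 790 CPM with CRISPRi and 1043 and 797 CPM in the controls. Control replicate 1, the highest, enters these fold changes as well as its own comparison with the deep libraries, so they are not separate results. The smallest p values belonged to NOP56, a box C/D core protein (-0.21, 95% interval -0.50 to 0.09), and ZNHIT3, an assembly factor (0.13, -0.11 to 0.37). In control replicate 1, 10 of 15 with at least 10 CPM lay above all deep libraries and 0 below, beside 10% and 7.61% of all genes. FBL, the methyltransferase fibrillarin, was at 55.0 CPM there against 25.3 to 26.4 CPM, and DKC1, the pseudouridine synthase dyskerin, at 68.8 against 33.6 to 35.4 CPM.

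Messages of ribosomal proteins that host snoRNAs were arranged like the particle proteins. Of 23 such genes 0 had a positive and 23 a negative log2 fold change, with a median of -0.13 beside 0.01 for all tested genes. Their summed level was 10012 and 10625 CPM with CRISPRi and 12910 and 10488 CPM in the controls. Control replicate 1, the highest, enters these fold changes as well as the comparison that follows, so they are not separate results. In control replicate 1, 17 lay above the deep libraries and 0 below, beside 10% and 7.61% of all genes. The smallest p values belonged to RPL17 (-0.23, 95% interval -0.50 to 0.05) and RPS2 (-0.35, -0.85 to 0.15). Over all 78 ribosomal protein genes with at least 10 CPM, 55 were above and 0 below. Of 15 other protein-coding hosts 9 were above and 3 below, among the latter EIF4A2, a translation initiation helicase, at 402 CPM against 528 to 568 CPM. Of the lncRNA hosts, 2 of the 13 SNHG genes lay above and 1 below, and 0 of 3 for ZFAS1, DANCR and EPB41L4A-AS1. Such counts depend on depth, since the interval is relatively narrower at a higher count. RPL7A, with 593 counts in control replicate 1 and a log2 ratio of 0.16, lay above. GAS5, with 78 counts and the same ratio, lay within. The median log2 ratio was 0.33 for ribosomal protein hosts and 0.25 for other protein-coding hosts. It was -0.01 for the SNHG genes and 0.04 for the 3 other lncRNA hosts. ZFAS1 had 76.2 CPM in control replicate 1 against 61.3 to 65.0 CPM, within its interval. The proliferating cell markers, of which 6 of 6 lay above with a median log2 ratio of 1.91, moved with these lists in that library, and their part in the values was not tested. A difference between coding and noncoding hosts was not tested.

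Factors of nonsense-mediated decay and the exon junction complex had 9 positive and 9 negative log2 fold changes with a median of 0.00. UPF1, the decay helicase, had -0.14 (-0.34 to 0.05) and SMG5 -0.20 (-0.58 to 0.18). Regulators of TOP messages had a median of -0.02 over 9 genes. TIAL1, an RNA-binding protein, had -0.19 (-0.56 to 0.17) and EIF4EBP1, a repressor of cap-dependent translation, -0.20 (-0.64 to 0.24). LARP1, which binds TOP starts, was level at 440, 436, 480 and 440 CPM. Others of the list were not, such as CNBP at 150, 62.3, 192 and 68.0 CPM and TIA1 at 58.5, 38.0, 51.9 and 58.6 CPM. In control replicate 1, 2 of the 9 lay above the deep libraries and 0 below, beside 10% and 7.61% of all genes. The 13 paraspeckle proteins, which bind NEAT1, also had a median of -0.02, and NONO was at 454, 452, 469 and 456 CPM. DAZAP1 had -0.27 (-0.62 to 0.08) and NUDT21 0.13 (-0.07 to 0.32).

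Of the 14 nuclear speckle and splicing proteins, 2 had a positive and 12 a negative log2 fold change, with a median of -0.14. Their summed level was 1631 and 1719 CPM with CRISPRi and 2152 and 1747 CPM in the controls, so control replicate 1 was again the highest. SRRM2, a scaffold of speckles, had -0.20 (-0.45 to 0.06), and the kinase CLK1 -0.24 (-0.58 to 0.11). In control replicate 1, 7 of 13 lay above and 0 below, beside 10% and 7.61% of all genes. The proliferating cell markers were high in the same library, and their part in this was not tested. Other named lncRNAs had a median of -0.02 over 12 genes, and of the 4 with at least 10 CPM none lay outside the deep libraries in control replicate 1. NORAD, a cytoplasmic lncRNA that binds Pumilio proteins, was at 542, 531, 537 and 519 CPM. CRNDE had -0.32 (-1.07 to 0.43) and OIP5-AS1 0.06 (-0.12 to 0.25). MEG3 and MEG8 of the imprinted DLK1 region were at or near 0 counts in every library.

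**Figure D5:**
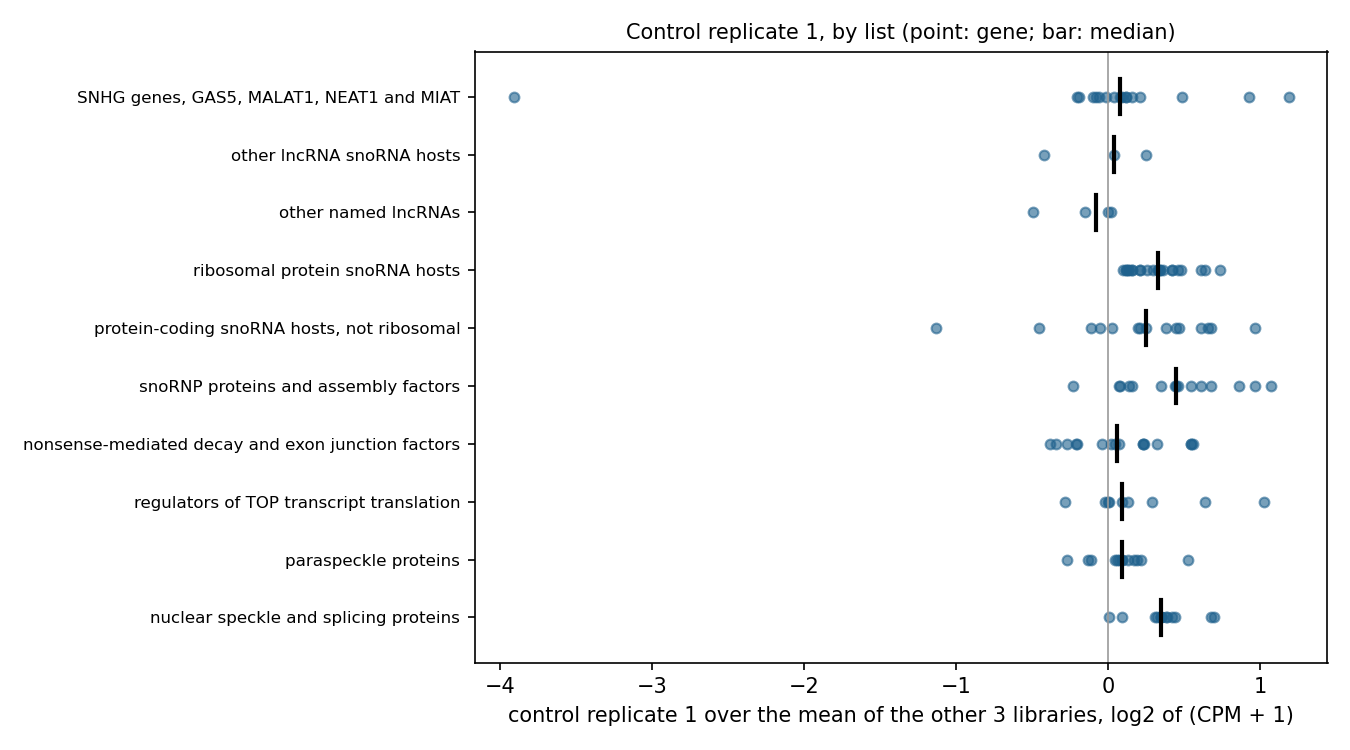
Log2 ratio of control replicate 1 to the mean of the 3 deep libraries, on the scale log2(CPM + 1), for genes with at least 10 CPM, with 1 point per gene and a bar at the median of each list. The 17 host genes and lncRNAs of the set, in the top line, have a median of 0.08 with SNHG20 far to the left, and the particle proteins have a median of 0.45.

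The snoRNAs themselves were hardly seen. Within 27 of the 32 genes, 26 SNHG genes and GAS5, the tables held 142 snoRNA rows on the same strand, of which SNHG14 had 83, GAS5 11 and SNHG1 8. These rows together held 251 and 179 counts with CRISPRi and 3 and 230 among the controls, against 37640, 35514, 833 and 33465 counts of their hosts. Of the 568 snoRNA genes listed, 287 had no count in any library, and 25 were tested with a median log2 fold change of -0.02. The libraries were made from polyA RNA, so these counts do not measure snoRNA levels.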

How the data were processed

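Read counts and FPKM values per gene row were made by the authors and deposited 1 table per library; the submitters' processing notes name hg38, edgeR and limma. The sources used here do not give the aligner, the counter or the strand setting. Rows start from 0 in the tables and are printed from 1. Here counts were summed per symbol over all contigs, and CPM used the summed total. CRISPRi and control were compared with the robust quasi-likelihood F test of edgeR 4.0.16 (R 4.3.3) after filterByExpr and TMM (adjusted p threshold 0.05, 15708 genes, group as the only term), with limma 3.58.1 and DESeq2 1.42.0 as alternatives. Scripts were tested on simulated counts. Labels call the 2 replicates of a group biologically independent. FPKM values were used for ranks and implied lengths only.

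The genes and lists were chosen with earlier results of these data known. Described in full are the 4 named lncRNAs, the 6 SNHG genes with the highest mean CPM, the 5 with the smallest p and the 5 farthest from the deep libraries in control replicate 1 in each direction. Of each list of proteins or lncRNAs, the 2 genes with the smallest p are named (marker lists and snoRNA genes are given as sums and counts); other list genes, and SNHG3, were chosen after their values were seen. The differences between replicates 1 and 2 of each group had a correlation of -0.0272 over 15708 genes. With the low depth and differing composition of control replicate 1, this value cannot decide whether the replicate numbers pair the libraries.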

Additional observations from a re-analysis of the deposited data

How the results depend on the processing

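Of 203 alternative values of the log2 fold change for the 17 genes described in full, 13 reversed direction and 2 more passed the test in the same direction (SNHG3 and SNHG5). MALAT1 was -0.41 with DESeq2, -0.48 with limma-voom and -0.67 under the replicate block, and -3.10 to 0.69 on leaving out a library. SNHG3 was -0.19 with DESeq2 and -1.30 to 2.35 with a library left out. GAS5 ranged from -0.14 to 0.03, SNHG16 from -0.46 to 0.02, SNHG20 from -0.08 upward to 11.64 (control replicate 1 alone, at 0 counts, so no measure of size) and SNHG32 from 0.00 to 0.11 on leaving out a library. The cause of these reversals was not tested. Over all genes, 0 were called higher and 4 lower, against 1 and 12 with DESeq2, 2 lower with limma-voom, 17 and 25 under the replicate block, and from 2 to 580 higher and 15 to 798 lower with a library left out. Genes of the set called higher or lower ranged from 0 to 1 in each direction with a library left out and were 0 with the block. The median ratio of control replicate 1, 0.08, was 0.05 with TMM and with median-of-ratios scaling and 0.01 to 0.09 with a library left out, and genes above numbered 4 at a minimum of 1 CPM, with SNHG3 and SNHG9 added. SNHG32 has no row on primary chromosomes, which leaves 24 tested genes. Control replicate 1, with under 50 counts for all but 5 genes of the set, limits every value that rests on it.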
